A study of Mus musculus with 48 samples.

Results

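NADPH oxidases are enzymes that pass electrons from NADPH across a membrane to oxygen and so make superoxide or hydrogen peroxide. The catalytic subunit is a Nox protein, which needs the small membrane protein p22phox (Cyba) as a partner. The phagocyte enzyme, built on Cybb, is silent until cytosolic subunits, among them p47phox (Ncf1) and p40phox (Ncf4), and a Rac GTPase join it at the membrane, whereas the enzyme built on Nox4 is constitutively active and needs no cytosolic subunit. In blood vessels and the heart these oxidases are best known as sources of reactive oxygen downstream of angiotensin II. The 9 genes described here were chosen by name: the catalytic subunits Nox1, Nox4 and Cybb, the partner Cyba, the cytosolic subunits Ncf1 and Ncf4, the GTPases Rac1 and Rac2, and Poldip2, a partner of the Nox4 and p22phox complex. All 9 were found among the 54752 genes of the deposited table.

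The values come from 48 RNA-seq libraries of male C57BL/6 mice that carried an eGFP reporter in the Prox1 gene, a regulator of lymphatic identity, so that every group shares this allele. The cell populations numbered 4. They were cardiac blood endothelial cells (heart BECs) and lymphatic endothelial cells (LECs) from both heart and diaphragm, all sorted as live CD31+ CD45.2- cells, with eGFP marking the LECs, and cardiomyocytes, which were spun out of the digested heart at low speed without a sort. Each population had 12 libraries: 4 from mice that received albumin alone by minipump (ctrl), 5 from mice that received angiotensin II (angII), and 3 from mice that received angiotensin II together with VEGFCc156s, a VEGF-C variant selective for VEGFR3 (angII+VEGFC). Mice were 8 to 16 months old by the labels, where the study's methods give ages in weeks, and were treated for 5 to 6 weeks, and most gave all 4 populations, so that 13 mice are behind the 48 libraries. The comparisons ask which oxidase subunits each population carries and whether angiotensin II, alone or with the lymphatic growth factor, changed their transcripts.

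The values are TPM, a gene's abundance relative to everything else in its library, corrected for transcript length. TPM keeps no read count, so the depth is unknown. Between 12924 and 25896 genes reached 1 TPM in a library, a count that stands in for complexity. The summed TPM of 5 lymphatic markers (Prox1, Lyve1, Flt4, Pdpn and Ccl21a) was 16181 to 40109 in the LECs, against 205 to 669 in BECs, and that of 6 cardiomyocyte markers was 7696 to 20275 in cardiomyocytes, against 4.34 to 962 in the endothelial populations. The cardiomyocyte libraries were not free of other cells: 14 leukocyte markers (Ptprc, Cd68, Adgre1, Csf1r, Lyz2, C1qa and others) summed to 985 to 3412 TPM in them, and to 53.95 to 506 TPM in the CD45.2- endothelial libraries, and no leukocyte marker was at 0 in all cardiomyocyte libraries of a group. In bulk samples, fewer cells of a type and less RNA per cell cannot be told apart. One cardiomyocyte library stood apart: that of mouse 8 (angII+VEGFC) had 19306 genes at 1 TPM or more, against 13020 to 15816 in the other 11, and the differences named from its group are given with and without it. The cardiomyocyte libraries were sequenced as a set of their own, so that set and cell type cannot be told apart for them.

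Promoter windows of 250 bases before the transcription start, from RefSeq on GRCm38.p6, were held for 6 of the 9 members, and the windows of Cybb, Ncf1 and Nox4 are shown because these were the 3 members whose cardiomyocyte values did not overlap between ctrl and angII (given with the treatments). Capitals mark GGAA, the core that ETS factors such as PU.1 bind, on either strand (TTCC where it lies on the other). Cybb lies at chrX:9435252-9487771 on the minus strand, Ncf1 at chr5:134220053-134229625 on the minus strand and Nox4 at chr7:87246096-87398710 on the plus strand (GENCODE M21, GRCm38), and the windows are chrX:9469325-9469574, chr5:134229626-134229875 and chr7:87246399-87246648, none of which holds an annotated exon base. The Ncf1 window lies directly before the annotated gene, and those of Cybb and Nox4 lie within the annotated gene spans, in introns of transcripts that start further upstream.

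Cybb: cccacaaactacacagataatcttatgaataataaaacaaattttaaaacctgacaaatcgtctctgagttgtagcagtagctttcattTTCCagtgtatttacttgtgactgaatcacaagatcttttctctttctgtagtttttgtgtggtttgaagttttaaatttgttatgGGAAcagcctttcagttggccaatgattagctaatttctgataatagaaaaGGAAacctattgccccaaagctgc
Ncf1: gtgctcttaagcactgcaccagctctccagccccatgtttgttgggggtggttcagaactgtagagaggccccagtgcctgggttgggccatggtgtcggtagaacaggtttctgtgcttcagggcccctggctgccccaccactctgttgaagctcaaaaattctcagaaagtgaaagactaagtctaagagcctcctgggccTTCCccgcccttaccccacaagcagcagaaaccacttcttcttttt
Nox4: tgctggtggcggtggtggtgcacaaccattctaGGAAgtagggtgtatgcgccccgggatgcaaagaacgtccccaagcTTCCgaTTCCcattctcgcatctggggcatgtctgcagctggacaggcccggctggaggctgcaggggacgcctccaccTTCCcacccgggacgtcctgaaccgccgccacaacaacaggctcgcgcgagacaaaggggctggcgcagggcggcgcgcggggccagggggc

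The Cybb window held 3 such cores, the Ncf1 window 1 and the Nox4 window 4, where the median of 32851 mouse windows was 3 and 93.4% of them held at least 1. The longer PU.1 word GAGGAA was in none of the 3 windows and in 23.3% of all windows. These counts describe the letters of the windows and say nothing of binding.

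Of the 9 genes, 7 passed the filter of 1 TPM in at least 3 libraries in heart LECs, 6 in heart BECs, 8 in cardiomyocytes and 8 in diaphragm LECs. Nox1, the catalytic subunit best known from the colon and from vascular smooth muscle, passed in no population and reached at most 0.587 TPM in any library. Rac2 did not pass in heart LECs or heart BECs, and Ncf1 did not pass in heart BECs. The level of each gene in all libraries is shown in the plot of the 9 genes by population and treatment.

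**Figure D1:**
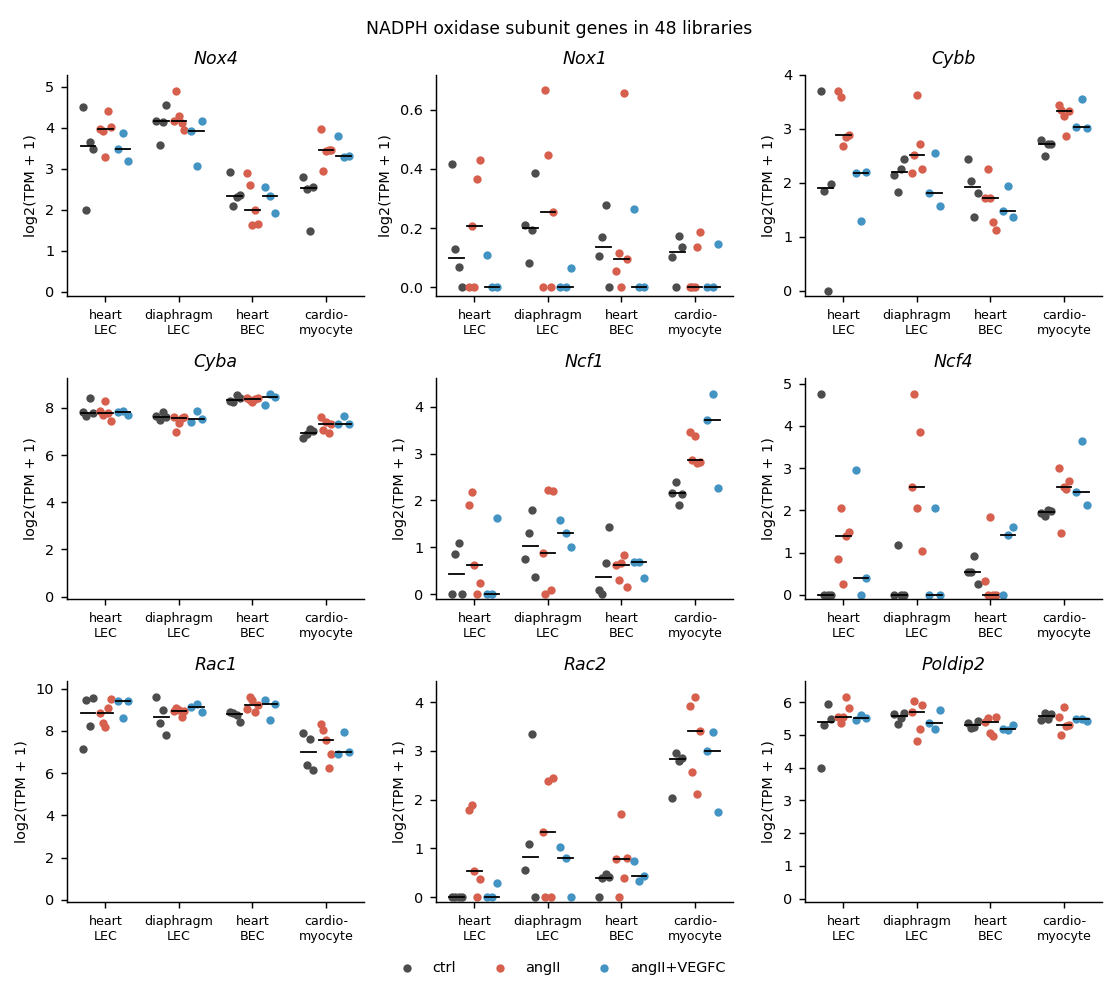
Each panel plots 1 gene as log2(TPM + 1) in the 48 libraries, by cell population (x axis) and treatment (colour), with a black bar at the median of each group of 3 to 5 libraries; the y axes differ between panels. Nox4 was highest in LECs, Cyba highest in heart BECs, and Ncf1 and Rac2 highest in the cardiomyocyte libraries.

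Nox4, the constitutively active catalytic subunit, was a transcript of LECs more than of BECs. In heart LECs it stood at 21.7, 2.98, 11.6 and 10.1 TPM in the 4 ctrl libraries, at 14.7, 14.1, 8.70, 20.3 and 15.1 TPM in the 5 angII libraries and at 10.3, 13.6 and 8.06 TPM in the 3 angII+VEGFC libraries. In diaphragm LECs it stood at 17.1, 10.9, 16.6 and 22.6 TPM with ctrl, at 16.9, 29.0, 18.4, 16.3 and 14.3 TPM with angII and at 14.2, 7.40 and 17.0 TPM with angII+VEGFC. In heart BECs the 12 values were lower, 6.58, 3.28, 3.96 and 4.17 TPM with ctrl, 6.47, 5.12, 2.08, 2.96 and 2.17 TPM with angII and 4.86, 4.08 and 2.81 TPM with angII+VEGFC. Every diaphragm LEC library lay above every heart BEC library, and 1 heart LEC library, that of ctrl mouse 5, lay within the BEC range.

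Averaged over the treatments, Nox4 was 1.33 higher in heart LECs than in heart BECs on the log2(TPM + 1) scale (SE 0.211, adjusted p = 3.06e-06, limma), and it was higher in 11 of 12 mice. The diaphragm LECs exceeded the heart BECs by 1.75 (SE 0.212, adjusted p = 5.75e-09) and did so in 11 of 11 mice. The difference was of like size within each sequencing batch, 1.41 in batch 1 and 1.33 in batch 2 for heart LECs, and 1.67 and 1.95 for diaphragm LECs. In the ctrl libraries alone the heart LEC excess was 0.98 and did not pass (adjusted p = 0.179). The heart and diaphragm LECs did not differ beyond their spread, with a difference of heart minus diaphragm of -0.42 (95% interval -0.85 to 0.00, adjusted p = 0.22). By mean level Nox4 thus ran from diaphragm LECs (16.7 ± 5.41 TPM, SD, n = 12) over heart LECs (12.6 ± 5.19) and cardiomyocytes (8.28 ± 3.63) to heart BECs (4.04 TPM). The sum of 7 fibroblast markers (Col1a1, Col1a2, Col3a1, Dcn, Lum, Pdgfra and Postn), cells that also carry Nox4, was 1154.6 to 2693.6 TPM in heart LECs, 500.17 to 3980 TPM in heart BECs and 192.8 to 1266.7 TPM in diaphragm LECs, and its part in the result was not tested.

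Cyba, the p22phox partner of Nox4 and of Cybb, had the opposite order among the endothelial cells. Its mean was 331 ± 31.2 TPM (SD, n = 12) in heart BECs, 233 ± 46.6 in LECs of the heart, 187 ± 27.7 in those of the diaphragm and 149 ± 30.6 in cardiomyocytes. Heart LECs lay below heart BECs, with a difference of -0.52 (SE 0.0951, adjusted p = 3.1e-05, limma on log2(TPM + 1)), lower in 11 of 12 mice. Diaphragm LECs differed from heart BECs by -0.81 (SE 0.0953, adjusted p = 2.75e-09), lower in 11 of 11 mice. The 12 BEC values lay between 273 and 386 TPM and the 12 diaphragm LEC values between 125 and 230 TPM, without overlap. Heart LECs were above diaphragm LECs in 10 of 11 mice, by 0.29 (SE 0.0953), a difference that missed the threshold without a block for the mouse (adjusted p = 0.0538) and passed with it (adjusted p = 0.0351). Nox4 and its partner thus stood in opposite order between LECs and BECs, and these 2 were the only members called in either of these comparisons, 2 of 8 tested, where 24.4% of 29322 genes were called between heart LECs and heart BECs and 20.6% between diaphragm LECs and heart BECs. Between heart and diaphragm LECs 0 of 8 members were called, against 7.64% of all genes. An unadjusted p under 0.05 was found for 2 (Cyba and Rac2), a count without the share of all genes beside it.

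**Figure D2:**
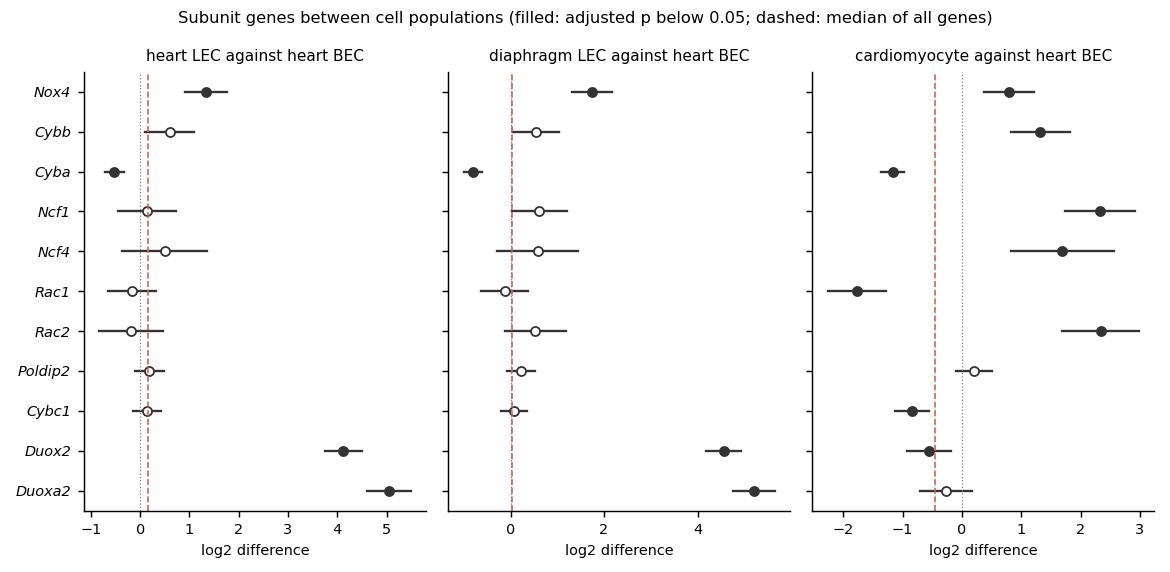
Points give the log2 difference (x axis, log2(TPM + 1) scale, mean of the 3 treatments) of each population from heart BECs for 8 oxidase genes and 3 further genes of the oxidase pathway, with 95% intervals; filled points have an adjusted p below 0.05, and the dashed line is the median of all 29322 genes. Nox4 lay above and Cyba below 0 in both LEC populations. Duox2 and Duoxa2 lay furthest to the right there, but their LEC levels carried them through the filter, so their filled points are no support. The cardiomyocyte value of Duox2 was called in 16 of 19 alternative fits, and not under quantile normalization.

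In the endothelial cells the phagocyte subunits differed in level, with Cybb at 1 TPM or more in all but 1 library and Ncf1, Ncf4 and Rac2 at 0 in several. Cybb, the catalytic subunit of the phagocyte oxidase, stood at 5.59 ± 4.10 TPM (SD, n = 12) in LECs of the heart, at 4.36 ± 2.43 in those of the diaphragm and at 2.39 ± 0.989 in BECs. Its heart LEC values spread most, from a value of 0 in ctrl mouse 9 to 12.1 TPM in ctrl mouse 1. The heart LEC excess over heart BECs, 0.60 (SE 0.244), was not called (adjusted p = 0.0691) and was -0.03 in the ctrl libraries alone. It passed without mouse 6 (0.75, adjusted p = 0.0407) or mouse 9 (0.74, adjusted p = 0.0049). Ncf1 had a mean of 1.47 ± 1.27 TPM in diaphragm LECs, against 0.921 ± 1.23 in heart LECs and 0.506 ± 0.457 in BECs. Ncf4 was at 0 in 3 of the 4 ctrl heart LEC libraries and in 3 of the 4 ctrl diaphragm LEC libraries, with single libraries as high as 26.1 TPM (ctrl mouse 1, heart) and 25.9 TPM (angII mouse 4, diaphragm). Rac2, the hematopoietic Rac GTPase, was at 0 in all 4 ctrl heart LEC libraries and reached 9.23 TPM in 1 diaphragm LEC library (ctrl mouse 9). Values at 0 in a TPM table can be failed estimates, so these genes are listed at 0 and no absence is read from them.

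In the cardiomyocyte libraries the same 4 genes were detected throughout. Ncf1 was at 3.48, 4.26, 2.76 and 3.39 TPM with ctrl, at 9.97, 6.33, 9.40, 6.00 and 6.08 TPM with angII and at 12.1, 18.4 and 3.84 TPM with angII+VEGFC, and it exceeded the heart BEC library in 12 of 12 mice. Cybb was higher in the cardiomyocyte than in the heart BEC library in 12 of 12 mice, and so were Ncf4 and Rac2. Against heart BECs the log2 differences were 2.33 for Ncf1 (SE 0.291, adjusted p = 4.35e-09), 2.34 for Rac2 (SE 0.32, adjusted p = 3.75e-08), 1.69 for Ncf4 (SE 0.428, adjusted p = 0.000946) and 1.33 for Cybb (SE 0.244, adjusted p = 1.18e-05, all limma). These genes belong to leukocytes by general knowledge, and the leukocyte marker sum was 985 to 3412 TPM in these libraries, against 53.95 to 145 TPM in heart BECs. In the ctrl libraries alone Ncf1 (1.60, adjusted p = 0.0112) and Rac2 (2.34, adjusted p = 0.00346) passed and Cybb (0.77, adjusted p = 0.304) and Ncf4 (1.38, adjusted p = 0.194) did not. The part of the leukocyte markers in these differences was not tested.

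The membrane partner and the ubiquitous Rac ran the other way. Rac1 differed by -1.77 between cardiomyocytes and heart BECs (SE 0.245, adjusted p = 5.07e-08), lower in 12 of 12 mice, with 171 ± 83.3 TPM in cardiomyocytes and 538 ± 142 TPM in BECs (SD, n = 12). Cyba differed by -1.16 between cardiomyocytes and heart BECs (SE 0.0952, adjusted p = 5.59e-14), lower in 12 of 12 mice. Its difference was -0.64 from heart LECs and -0.35 from diaphragm LECs, both called, although quantile normalization turned these to 0.030 (not called) and 0.36 (called). The median of all 29322 genes was itself lower in cardiomyocytes, at -0.46 against heart BECs, -0.64 against heart LECs and -0.48 against diaphragm LECs. Rac1 lay below these medians in each comparison, at -1.60 against heart LECs and -1.64 against diaphragm LECs, whereas Cyba lay at the median against heart LECs and above it against diaphragm LECs. In each of the 3 comparisons 7 of 8 members were called, with Cybb, Ncf1, Ncf4 and Rac2 higher and Rac1 and Cyba lower in all 3 (apart from the turn of Cyba under quantile normalization) and Nox4 higher only against heart BECs, where 49%, 66.8% and 53.3% of all genes were called.

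The place of cardiomyocytes in the order of Nox4 differed between ctrl and all libraries. The cardiomyocyte mean lay 0.80 above heart BECs (SE 0.212, adjusted p = 0.0016, limma) over all treatments, but in the ctrl libraries alone the difference was -0.087 (adjusted p = 0.886), with ctrl cardiomyocytes at 1.78 to 6.00 TPM and ctrl BECs at 3.28 to 6.58 TPM. Against heart LECs cardiomyocyte Nox4 differed by -0.53 (SE 0.211, adjusted p = 0.0266), which quantile normalization turned to 0.19 (adjusted p = 0.445). That call was also lost in the ctrl libraries alone (-1.07, adjusted p = 0.0587) and without mouse 1, 6, 9 or 15 (-0.47, -0.48, -0.43 and -0.48, adjusted p = 0.054, 0.0707, 0.084 and 0.0593). Against diaphragm LECs the difference was -0.95 (SE 0.212, adjusted p = 0.000189), and -0.28 (adjusted p = 0.274) under quantile normalization.

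Poldip2, which binds p22phox and raises the activity of the Nox4 complex, had similar mean levels in the populations, from 38.2 TPM in heart BECs to 45.8 TPM in heart LECs. Its levels ran from 14.8 TPM (heart LEC, ctrl mouse 1) to 70.8 TPM (heart LEC, angII mouse 15), and it was called in none of the 6 comparisons between populations, where its differences lay between -0.04 and 0.22. Under quantile normalization it was called higher in cardiomyocytes than in each endothelial population, by 0.76 to 1.01. Within mice, Poldip2 was higher than in heart BECs in heart LECs (10 of 12 mice), diaphragm LECs (10 of 11) and cardiomyocytes (10 of 12). The other pairs were split, with heart LECs above diaphragm LECs in 5 of 11 mice. Cardiomyocytes lay above heart LECs in 5 of 12 and above diaphragm LECs in 5 of 11.

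Rac1, the GTPase that both the Nox1 and the phagocyte enzyme can use, had the highest mean TPM of the 9 genes in each population, followed by Cyba, and its spread within a population was wide. In heart LECs the 6 libraries of batch 1 lay at 143 to 461 TPM and the 6 of batch 2 at 542 to 742 TPM, without overlap. In diaphragm LECs batch 1 was the higher, at 487 to 783 TPM against 219 to 556 TPM, and in heart BECs the batches overlapped, at 365 to 784 and 337 to 710 TPM. Heart LECs differed from heart BECs by -0.81 in batch 1 and by 0.39 in batch 2, so no order of Rac1 between the endothelial populations was read, and the pooled difference of -0.17 (SE 0.245) was not called (adjusted p = 0.652). The 3 genes nearest to Rac1 over the 48 libraries were Ankrd13a, Jund and Arhgap23 (Pearson r 0.959, 0.959 and 0.955, across libraries that share cell type and batch). Rac1 also shares 51.3% of its 31-base words with other genes, nearly all with Daglb, whose exons overlap it on the opposite strand. The library kit does not mark strand, so reads of these 2 genes cannot be fully told apart. The same limit holds to a lesser degree for Ncf1 and Nox1. Ncf1 shares 9.84% of its words, mostly with Gtf2ird2, and Nox1 shares 11.1%, all with Cstf2. Exons of Gtf2ird2 and Cstf2 overlap these members on the opposite strand.

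**Figure D3:**
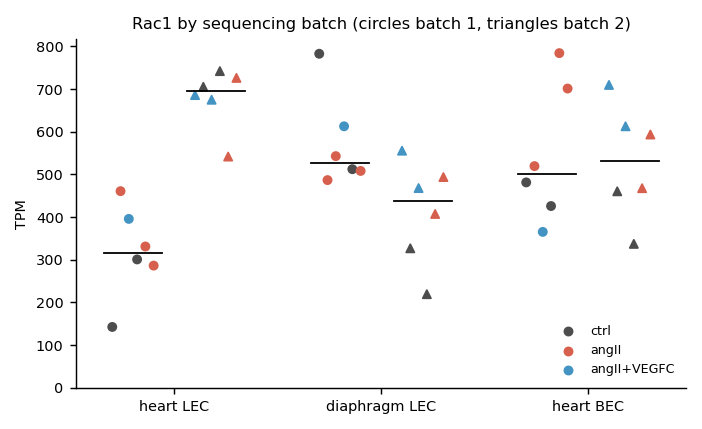
Rac1 in TPM (y axis, from 0) in the 36 endothelial libraries, by population and sequencing batch (circles batch 1, triangles batch 2), coloured by treatment, with a bar at the median of each 6 libraries. The batches did not overlap in heart LECs, with batch 2 higher, and overlapped in heart BECs.

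Of 9 further oxidase genes fixed by name, 7 could be tested between populations. Among them 3 were called higher in heart LECs than in heart BECs (Duoxa2, Duox2 and Duoxa1) and 1 lower (Rac3), where 24.4% of 29322 genes were called. LEC levels carried Duox2 and Duoxa2 through the filter, so their calls give no support to a difference. Duox2, a hydrogen peroxide-producing oxidase best known from the thyroid, was at 29.3 ± 12.7 TPM in heart LECs and 37.5 ± 11.2 in diaphragm LECs, against 0.667 ± 0.322 in heart BECs. The fitted difference between heart LECs and heart BECs was 4.12 (SE 0.186, adjusted p = 8.01e-22, limma). Duox2 passed the filter in the LEC populations alone, so this test gives no support to the difference in levels. Its maturation factor Duoxa2 was at 49.6 ± 21.8 and 53.7 ± 21.7 TPM in heart and diaphragm LECs, against 0.419 ± 0.405 in heart BECs. Among the oxidase genes examined, the mean levels of Duox2 and Duoxa2 exceeded that of Nox4 in LECs on the per-length TPM scale. Cybc1, a chaperone of the Cybb and p22phox pair, was even across the endothelial cells, at 29.6 to 32.8 TPM on average, and Noxa1 was at 0 in all 12 heart LEC libraries. Noxo1, the organizer of the Nox1 enzyme, was lower in diaphragm LECs than in heart BECs in 11 of 11 mice, with a difference of -0.70 (SE 0.237, adjusted p = 0.0272). Between these populations 20.6% of all genes were called. Nox3 and Duox1 did not pass the filter in any population.

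Angiotensin II is the classical stimulus of these oxidases, and the first question was whether the subunits changed with it in endothelial cells. In the 3 endothelial populations no member was called in any contrast. Over all 12 contrasts of treatments, cardiomyocytes included, 87 member tests gave 0 calls (limma, adjusted p below 0.05) and 12 at an unadjusted p under 0.05. The latter are not set against the share of all genes at an unadjusted p, so nothing is read from their number. By adjusted p the background was sparse as well. In heart LECs 0.0261% of 26803 genes were called in angII against ctrl and 0% in the other contrasts, and in diaphragm LECs and heart BECs 0% were called in each of 3 contrasts. In cardiomyocytes 0.0892% of 15691 genes were called in angII against ctrl, 0.663% in angII+VEGFC against ctrl and 0% in angII+VEGFC against angII. The contrasts of angII and of angII+VEGFC with ctrl share their ctrl libraries.

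**Figure D4:**
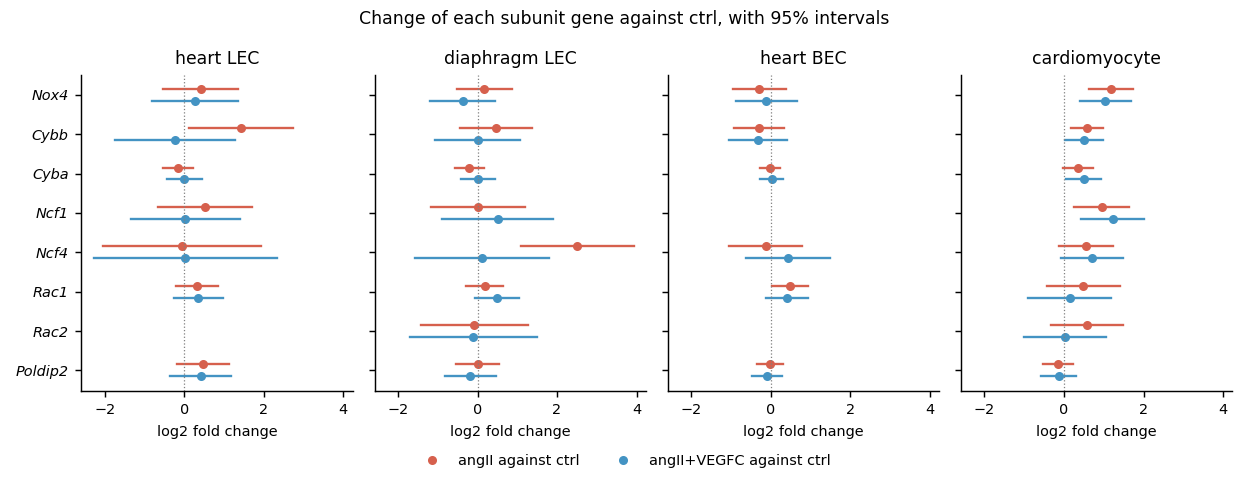
Log2 fold changes (x axis, log2(TPM + 1) scale) of the members against ctrl with 95% intervals, for angII and angII+VEGFC, in each population; a gene is missing where it did not pass the filter. No point had an adjusted p below 0.05, and in cardiomyocytes the intervals of Nox4, Ncf1 and Cybb lie above 0 in both contrasts and that of Cyba in angII+VEGFC against ctrl.

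In heart LECs Cybb had the largest fitted difference of the 7 members tested. It stood at 12.1, 2.61, 0 and 2.91 TPM with ctrl, at 12.0, 10.9, 5.4, 6.22 and 6.35 TPM with angII and at 3.55, 1.45 and 3.57 TPM with angII+VEGFC. All 3 angII+VEGFC libraries lay below all 5 angII libraries, as did 7.33% of all genes, whereas the ctrl libraries spanned both. The fitted difference was 1.42 in angII against ctrl (SE 0.616, adjusted p = 0.421) and -1.66 in angII+VEGFC against angII (SE 0.733, adjusted p = 0.446), so neither passed. With the count of genes that reach 1 TPM as a covariate the values were -0.13 and 0.58, of opposite sign, and angII heart LEC libraries had 19957 to 25896 such genes against 16756 to 18884 in the angII+VEGFC libraries. The leukocyte marker sum in heart LECs was 58.9 to 311 TPM with angII and 60.3 to 506 TPM with angII+VEGFC. The summed level of 6 lymphocyte markers (Cd3e, Cd3g, Cd79a, Cd79b, Ms4a1 and Nkg7) was 13.1 to 18.6 TPM with angII against 3.91 to 8.89 TPM with angII+VEGFC, without overlap, and 6.39 to 26.2 TPM with ctrl. Its relation to Cybb across libraries was not computed. Of the 6 markers Nkg7 alone was at 0 in every ctrl and every angII+VEGFC library. The part of these markers in the result was not tested. In angII against ctrl Nox4 gave 0.41 (95% interval -0.52 to 1.35) and Cyba -0.16 (-0.54 to 0.22), neither called, where the median of all genes was 0.23.

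In diaphragm LECs, Ncf4 stood at 0, 1.27, 0 and 0 TPM with ctrl, at 4.90, 25.9, 3.13, 13.5 and 1.06 TPM with angII and at 0, 3.15 and 0 TPM with angII+VEGFC. The angII libraries were mostly the higher, with overlap in both directions. Ncf4 passed the filter through the angII group, since all 5 angII libraries reached 1 TPM and only 1 ctrl and 1 angII+VEGFC library did, so the values that follow give no support to a difference. The fitted differences were 2.51 in angII against ctrl (SE 0.664, adjusted p = 0.297) and -2.38 in angII+VEGFC against angII (SE 0.766, adjusted p = 0.567). The genes that reach 1 TPM numbered 20062 to 23691 in the angII libraries and 12924 to 18373 in the others. With that count as a covariate the differences were 1.88 and -1.86, and its part in the result was not tested. The leukocyte marker sum was 126 to 356 TPM with ctrl, 158 to 474 TPM with angII and 104 to 162 TPM with angII+VEGFC, and the lymphocyte marker sum was 4.60 to 46.8, 15.5 to 45.1 and 5.19 to 26.0 TPM. The part of these markers was not tested either. In angII against ctrl Nox4 gave 0.17 (95% interval -0.52 to 0.86) and Cyba -0.21 (-0.57 to 0.15), where the median of all genes was 0.28. In heart BECs the lowest unadjusted p belonged to Rac1, at 481, 460, 426 and 337 TPM with ctrl and 520, 784, 701, 468 and 594 TPM with angII, a difference of 0.48 (SE 0.211, adjusted p = 0.914). Nox4 gave -0.29 (-0.95 to 0.37) and Cyba by -0.02 (-0.28 to 0.23) there.

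Whether the treatments acted differently in the 3 endothelial populations was tested by the difference of their changes. Of 72 member tests in 9 such comparisons 0 were called (limma, 4 at an unadjusted p under 0.05), where 0.00691% of 28938 genes were called in 1 comparison, angII against ctrl between heart and diaphragm LECs, and 0% in the other 8. The 4 were Cybb for angII against ctrl in heart LECs against heart BECs (1.54, SE 0.639, adjusted p = 0.611) and Ncf4 in 3 comparisons that involve diaphragm LECs (adjusted p = 0.379 to 0.672). They are not set against the share of all genes at an unadjusted p, so nothing is read from their number.

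In the cardiomyocyte libraries several members separated by treatment without passing the test over all genes. Nox4 stood at 6.00, 4.73, 1.78 and 4.86 TPM with ctrl, at 14.7, 6.73, 9.80, 10.1 and 10.0 TPM with angII and at 12.9, 8.80 and 9.00 TPM with angII+VEGFC. Every treated library lay above every ctrl library. The difference was 1.18 in angII against ctrl (SE 0.26, 95% interval 0.63 to 1.74) and 1.04 in angII+VEGFC against ctrl (SE 0.299, 0.40 to 1.67), with adjusted p = 0.0933 and 0.14 (limma), so neither passed the threshold. The angII+VEGFC and angII libraries did not differ beyond their spread (-0.15, 95% interval -0.79 to 0.49, and -0.034 without mouse 8). Without the library of mouse 8 the angII difference was 1.20 and passed (adjusted p = 0.029), and the angII+VEGFC difference was 1.16 (adjusted p = 0.054). Over 19 alternatives the angII difference lay between 0.88 and 1.39, with adjusted p from 0.0199 to 0.472.

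Ncf1 and Cybb also had higher values in the treated groups. Cybb stood at 5.91, 4.65, 5.54 and 5.53 TPM with ctrl, at 9.79, 9.13, 8.42, 6.25 and 9.04 TPM with angII and at 7.19, 10.7 and 7.06 TPM with angII+VEGFC, with no overlap between ctrl and either treated group. Its difference was 0.58 in angII against ctrl (SE 0.192, adjusted p = 0.293) and 0.50 in angII+VEGFC against ctrl (SE 0.221, adjusted p = 0.35), the latter 0.60 without mouse 8 (adjusted p = 0.157). Ncf1, whose values are given above, did not overlap between ctrl and angII, and 1 of its 3 angII+VEGFC libraries, that of mouse 8, lay within the ctrl range. Its differences from ctrl were 0.95 with angII (SE 0.326, adjusted p = 0.311) and 1.22 with angII+VEGFC (SE 0.374, adjusted p = 0.16). Without mouse 8 these became 0.99 (adjusted p = 0.011) and 1.80 (adjusted p = 0.000941), both past the threshold. That fit called 2 of 8 members in angII against ctrl (Nox4 and Ncf1), where 2.11% of 14910 genes were called, and 1 of 8 in angII+VEGFC against ctrl (Ncf1), where 5.71% were called.

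Cyba and Ncf4 separated in 1 contrast. Cyba stood at 103, 116, 136 and 130 TPM with ctrl and at 159, 203 and 160 TPM with angII+VEGFC, without overlap, with a difference of 0.50 (SE 0.204, adjusted p = 0.311), or 0.56 without mouse 8 (adjusted p = 0.148). Ncf4 stood at 2.81, 2.63, 3.02 and 2.98 TPM with ctrl and at 4.38, 11.4 and 3.38 TPM with angII+VEGFC, without overlap, with a difference of 0.70 (SE 0.367, adjusted p = 0.449), or 1.04 without mouse 8 (adjusted p = 0.112). In angII against ctrl 3 members (Nox4, Cybb and Ncf1) lay higher without overlap, against 5.1% of all genes, and in angII+VEGFC against ctrl 4 did (Nox4, Cybb, Cyba and Ncf4), against 9.19%. Without mouse 8, which leaves 2 libraries in that group, 6 did (Ncf1 and Rac2 as well), against 25.4% of 14910 genes. Rac2, at 3.11 to 6.81 TPM with ctrl, 3.33 to 16.3 with angII and 2.36 to 9.47 with angII+VEGFC, overlapped when all libraries were used, as did Rac1 and Poldip2. Poldip2 gave -0.15 (95% interval -0.53 to 0.23) in angII against ctrl.

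Leukocyte and fibroblast markers moved with the cardiomyocyte groups. The sum of the 14 leukocyte markers was 985 to 1223 TPM with ctrl, 1563 to 2806 with angII and 1429 to 3412 with angII+VEGFC, and the sum of the 7 fibroblast markers was 2463 to 3670, 4412 to 6174 and 3524 to 7773 TPM. Ctrl thus did not overlap angII in either sum. The other lists overlapped, with 7 smooth muscle and pericyte markers at 950 to 1720 TPM with ctrl and 1008 to 1439 with angII, 5 endothelial markers at 336 to 436 and 278 to 490, and the 6 lymphocyte markers at 5.04 to 8.05 and 4.57 to 12.7. Across the 12 cardiomyocyte libraries Ncf1 followed the leukocyte sum with Pearson r = 0.891 (permutation p = 8e-05, adjusted over 20 relations 0.001) and Spearman rho = 0.839 (permutation p = 0.00108, adjusted 0.0072). Cybb gave r = 0.888 (permutation p = 0.0001, adjusted 0.001) and rho = 0.867 (p = 0.00056, adjusted 0.0056), and Ncf4 gave r = 0.87 (permutation p = 0.00021, adjusted 0.0014) and rho = 0.874 (p = 0.00032, adjusted 0.0056). Without the 2 libraries farthest from the median sum r was 0.804 for Ncf1, 0.817 for Cybb and 0.668 for Ncf4, and over deviations from the treatment means it was 0.772, 0.715 and 0.885. Rac2 gave r = 0.592 (permutation p = 0.0426, adjusted 0.122) and rho = 0.692 (p = 0.0156, adjusted 0.0626), and did not pass.

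Nox4 is also a known transcript of cardiac fibroblasts. It followed the fibroblast sum in the cardiomyocyte libraries with r = 0.827 (permutation p = 0.00036, adjusted 0.0018) and rho = 0.727 (p = 0.00938, adjusted 0.0469), r = 0.874 without the 2 farthest libraries and 0.504 over deviations from the treatment means. In heart LECs the same r was 0.05 and in diaphragm LECs -0.07, and in heart BECs it was 0.67 (permutation p = 0.0181, adjusted 0.0605), 0.646 in batch 1 and 0.618 in batch 2. Of the 20 relations, the 4 of Cybb, Ncf1, Ncf4 and Nox4 in cardiomyocytes passed by both measures and none did in an endothelial population. The permutations shuffled libraries across treatments, and ctrl did not overlap angII in either sum in cardiomyocytes. These p-values thus include the split by treatment, and none was computed over the deviations from the treatment means. The part of the leukocyte and fibroblast markers in the cardiomyocyte differences was not tested.

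**Figure D5:**
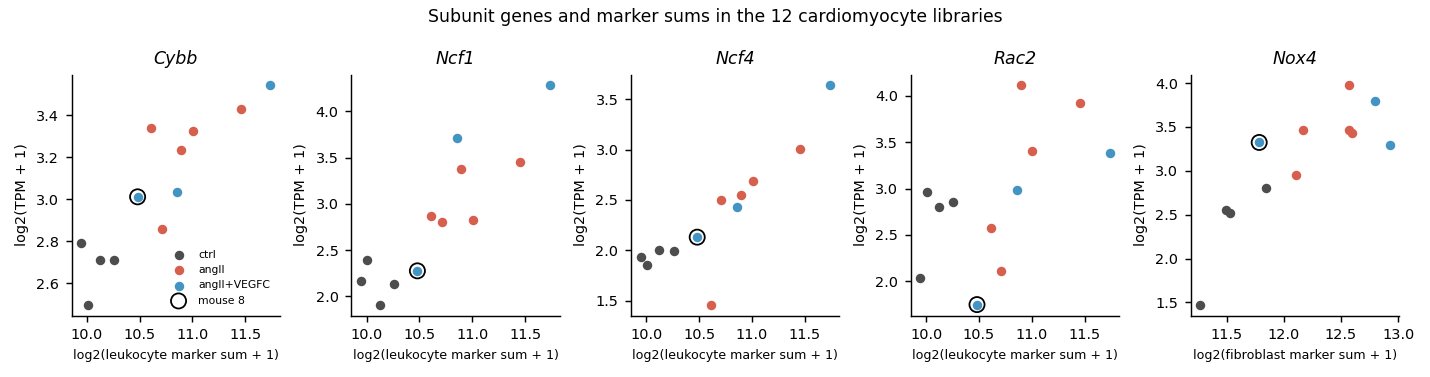
Level of 5 members (y axis, log2(TPM + 1)) against the summed TPM of leukocyte or fibroblast markers (x axis, log2 scale) in the 12 cardiomyocyte libraries, coloured by treatment, with mouse 8 circled. The ctrl libraries lie at the lower left for Cybb, Ncf1 and Nox4, and Ncf4 follows the leukocyte sum across the treatments, with 1 angII library below the others.

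The genes whose pattern was most like each member's were taken over the 48 libraries by Pearson r among all genes that passed the filter in any population. For Rac2 they were Vav1 (0.891), Ncf1 (0.885) and Slc11a1 (0.879), for Ncf1 they were Bcl2a1b (0.898), Rac2 (0.885) and Ctss (0.845), and for Cybb they were Cd33 (0.752), Cd72 (0.749) and Sla (0.736). Cyba was nearest to Psme2 (0.922), B2m (0.915) and BC028528 (0.913), and Nox4 to Serpine2 (0.817), Rbms3 (0.812) and Aebp1 (0.807). Over the deviations from the group means, which remove cell type and treatment, Ncf1 and Rac2 were each other's nearest gene (0.755), B2m was nearest to Cyba (0.701) and Acy1 to Poldip2 (0.803). The others had none of their 3 genes over the 48 libraries among their 3 nearest there. Cybb was then nearest to Klrc2 (0.774), Nox4 to Ankrd44 (0.687), Ncf4 to Gm14976 (0.79) and Rac1 to 2510039O18Rik (0.964). Libraries share mice and batches, so these are descriptions.

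Of 22 antioxidant enzymes 0 were called in any of the 12 treatment contrasts (limma), as were 0 of the 14 or 15 kinases and Rac regulators and of the 1 or 2 angiotensin receptors that could be tested in each. In cardiomyocytes the 22 antioxidant genes had a median difference of 0.19 in angII against ctrl, and the 15 kinases and Rac regulators one of 0.28, against 0.12 over all genes. The median over all genes is itself above 0, so most genes share the positive sign. The leukocyte marker sum was also higher with angII in these libraries, and its part in these medians was not tested. The members that passed the filter had a median of 0.56 in angII against ctrl and 0.50 in angII+VEGFC against ctrl there, against 0.12 and 0.11 over all genes. Without mouse 8 these medians were 0.58 and 0.58, against 0.13 and 0.15. In heart BECs their median in angII against ctrl was -0.08, against -0.06 over all genes.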

How the data were processed

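The authors deposited TPM for 54752 genes in 48 libraries, made from 2 ng of RNA each with an amplifying kit that does not mark strand. The submitters' processing notes name STAR 2.5.3a, Salmon 0.12.0, GRCm38 and Ensembl 95. Groups, mouse, age and batch came from the labels. Values were taken as log2(TPM + 1), a scale that understates the change of low genes. The filter was 1 TPM in 3 libraries. The fits used limma 3.58.1 (R 4.3.3, trended variance), treatments within a population and populations over all libraries, with age and the batch of the endothelial libraries as covariates (age alone for treatments in cardiomyocytes), adjusted p-values (Benjamini-Hochberg) over all genes and a threshold of 0.05. They were tested on simulated data. Correlations used 100000 permutations, two-sided. Same-numbered libraries come from the same animal, so the mouse pairs populations. Their deviations from group means correlated by 0.0696 on average over 34 pairs, and those of different mice by -0.0200 over 116 pairs. The members and lists were chosen with earlier results of these data known. All 9 members are named, and list genes where they passed a test, were listed at 0 or check a label. A gene was left out of the list of further oxidase genes and is not reported here. The nearest 3 genes were taken by Pearson r. Promoters came from RefSeq (GRCm38.p6) and positions from GENCODE M21.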

Additional observations from a re-analysis of the deposited data

Results flagged for a closer look

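Of 58 groups of 4 or 5 libraries in which a member could be examined, 7 held a library farther from the others than Dixon's 95% limit for the gap over the range. That limit flags about 1 in 20 groups of normally distributed values, a rate that need not hold for TPM with values at 0. Nox4 was 29.0 TPM in the diaphragm LEC library of angII mouse 4, with the next at 18.4 TPM. Cyba was 337 TPM in the heart LEC library of ctrl mouse 9, with the next at 223 TPM. Cybb was 11.3 TPM in the diaphragm LEC library of angII mouse 14, with the next at 5.59 TPM. Ncf4 was 26.1 TPM in the heart LEC library of ctrl mouse 1 and 1.27 TPM in the diaphragm LEC library of ctrl mouse 5. The other ctrl libraries of these groups were at 0, so any value above 0 would have been flagged. Ncf4 was also 2.60 TPM in the heart BEC library of angII mouse 14, with the next at 0.254 TPM. Rac2 was 9.23 TPM in the diaphragm LEC library of ctrl mouse 9, with the next at 1.13 TPM.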

How the results depend on the processing

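In the treatment contrasts no member was called with the other pseudocount, without the filter, without covariates or after quantile normalization. In cardiomyocytes 2 members (Nox4 and Ncf1) were called in angII against ctrl with the first residual component as a covariate, with the count of genes that reach 1 TPM as a covariate and with the 2 treatments alone, and leaving out 1 library gave 0 to 2, the 2 without mouse 8 of angII+VEGFC. In angII+VEGFC against ctrl 1 (Ncf1) was called with either of these covariates, and leaving out 1 library gave 0 to 1, again without mouse 8. All genes called in these 2 contrasts numbered 14 and 104, against 273 and 524 with the residual component and 314 and 852 without mouse 8. In diaphragm LECs 1 member, Ncf4, was called in angII against ctrl with the residual component (2.51, adjusted p = 0.0467), when 520 genes were called against 0. Ncf4 entered that test through the angII group, so the call is no support. In each population that component was taken from the residuals of the same fit. It is orthogonal to the treatments, so it lowers the residual spread and leaves the differences as they were. The calls added with it, those in cardiomyocytes included, are therefore no independent support. Otherwise the cause was not tested.

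Between populations, mouse as a replicate block called 1 member in heart LECs against diaphragm LECs, Cyba (0.29, adjusted p = 0.0351), and changed no other count of members called. Quantile normalization also called 1, Cyba (0.33, adjusted p = 0.00864), and leaving out 1 mouse gave 0 to 1, with Cyba called without mouse 12 or mouse 18 (adjusted p = 0.0483 and 0.0325). In the ctrl libraries alone, which are fewer, 1 member was called in heart LECs against heart BECs, 4 in cardiomyocytes against heart BECs, 4 against heart LECs and 3 against diaphragm LECs. Leaving out 1 mouse gave 4 to 7 in cardiomyocytes against heart LECs, the 4 without mouse 6. The direction turned for Nox4 in cardiomyocytes against heart BECs in ctrl alone (-0.087) and, under quantile normalization, for Nox4 (0.19) and Cyba (0.030) against heart LECs and for Cyba (0.36) and Poldip2 (0.76) against diaphragm LECs. For single genes 1702 of the treatment values stayed on their side of the threshold, 12 passed it anew and 39 moved by over 1 SD. Between populations 984 stayed, 24 lost the call, 8 passed anew, 5 moved and 5 turned with a call before or after. A further 40 values between populations and 188 of the treatments changed sign with no call in either fit, among them Cybb (-0.027) and Poldip2 (-0.14) in heart LECs against heart BECs in ctrl alone. The depth of each library is unknown, so no limit of detection could be set.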
